A study of Mus musculus with 18 samples.

Results

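Oxidative phosphorylation was followed through the 99 genes of its complexes that have a row in the deposited table of library-scaled values, out of 15386 genes in that table. The members were all genes whose mouse symbol starts with Nduf, Uqcr, Atp5, Cox4, Cox5, Cox6, Cox7 or Cox8, the succinate dehydrogenase genes Sdha, Sdhb, Sdhc and Sdhd, and the protein-coding genes of the mitochondrial genome, with pseudogenes left out. 86 members are nuclear and 13 are mitochondrially encoded, and all 99 had enough counts to be tested. A further 7 protein-coding genes fit the symbols but have no row in that table. All are isoform genes. Their summed counts over 18 libraries were 16 for Cox4i2, 38 for Cox6a2, 5 for Cox6b2 and 1 for Cox7b2. For Cox8b the sum was 3, for Cox8c 0 and for Ndufa4l2 15.

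The cells were MPC3, a mouse prostate cancer line, and 18 libraries of polyadenylated RNA were sequenced, 6 in each of 3 groups. Control libraries are titled plko, taken here as the vector without an Rnf185 hairpin because the labels call these libraries the control. The other groups carried hairpin shRNF185.1 or hairpin shRNF185.3, short hairpin RNAs directed against Rnf185, which encodes a ubiquitin ligase of the endoplasmic reticulum. Replicates 1 and 2 of each group belonged to batch 1, replicates 3 and 4 to batch 2 and replicates 5 and 6 to batch 3. Nothing in the labels says whether the libraries came from separate cultures, nor whether the cells of a group were a pool or a clone. The p-values therefore measure the spread between these libraries, which may be technical. The deposited tables are named for a batch adjustment, so this is the spread left after it. The main fit had no batch term and made no allowance for that adjustment.

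Total counts ranged from 22027395 to 43379662 per library. Rnf185 averaged 35.9 ± 1.96 CPM in control, 5.81 ± 0.58 CPM under shRNF185.1 and 5.80 ± 0.55 CPM under shRNF185.3 (SD, n = 6 each), so every library was on the side of its label, control or knockdown; Rnf185 cannot tell the hairpins apart. CPM here are counts scaled to an effective library size, so they need not sum to the same total in each library. Of the epithelial markers, Krt8, Krt18 and Cdh1 had a row and Epcam had none. Their summed level was 1429 to 1743 CPM in control, 881 to 1155 CPM under shRNF185.1 and 952 to 1020 CPM under shRNF185.3. In the same order Krt8 averaged 1197, 830 and 835 CPM, Krt18 354, 177 and 149 CPM and Cdh1 35.0, 9.30 and 7.99 CPM. The prostate gene Hoxb13 was present in all groups, whereas Pbsn had no row. Of 3 basal markers Krt5 had no row. The others summed to 22.6 to 38.8 CPM in control, 17.4 to 28.8 CPM under shRNF185.1 and 20.8 to 27.1 CPM under shRNF185.3. Krt14 averaged 26.5, 18.8 and 19.7 CPM in that order, whereas Trp63 averaged 2.78, 4.32 and 4.68 CPM. The 4 mesenchymal markers, nearly all of it Vim, summed to 2815 to 3788, 3313 to 3695 and 3192 to 3637 CPM in the same order. The 4 fibroblast markers summed to 255 to 287 CPM in control and 285 to 307 CPM under shRNF185.1. Under shRNF185.3 they summed to 352 to 403 CPM, without overlap with control. The members did not move together. In the order control, shRNF185.1 and shRNF185.3, Pdgfrb averaged 157, 201 and 235 CPM and Pdgfra 89.6, 89.7 and 122.7 CPM. Dcn was lower with each hairpin, at 24.9, 5.76 and 17.6 CPM, and Lum averaged 0.253, 0.172 and 0.478 CPM. Of 5 leukocyte markers only Cd68 had a row, at 1.75 to 5.04 CPM over all libraries, and the endothelial markers summed to at most 0.706 CPM. The part of the epithelial and fibroblast marker differences in the results that follow was not tested. In such bulk samples fewer cells of a type and less RNA per cell cannot be told apart.

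Oxidative phosphorylation passes electrons from NADH through complex I, or from succinate through complex II, to complex III and complex IV, where oxygen is reduced. The protons pumped on the way drive complex V, the ATP synthase. Complexes I, III, IV and V are built from proteins of both genomes: the mitochondrial DNA encodes a small set of membrane-embedded core proteins, and the nucleus encodes the other subunits and the assembly factors. Nuclear promoters of this pathway are known for sites of NRF1, of ETS factors such as GABPA, and of YY1.

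Per kilobase of transcript, the mitochondrially encoded genes had a higher median level than the nuclear members. In control cells it was 1277 CPM per kb, from 554 for mt-Co3 to 5505 for mt-Co1, against a median of 111 CPM per kb for the nuclear members. The highest nuclear gene was Atp5b, the catalytic beta subunit of the ATP synthase, at 753 CPM per kb. The lowest was Cox7a1, the isoform of heart and skeletal muscle, at 1.81 CPM per kb. Among nuclear members the control median was 213 CPM per kb for complex IV, 209 for complex V, 116 for complex II, 84.8 for complex I and 11.8 for the Ndufaf assembly factors of complex I.

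About 4 in 10 nuclear members fell under shRNF185.1 and fewer under shRNF185.3, by small amounts, and none rose. With shRNF185.1, 34 of 86 nuclear members fell and 0 rose (edgeR quasi-likelihood test with Benjamini-Hochberg adjustment over 14309 genes, called at an adjusted p under 0.05). This was 39.5% of the nuclear members, where 28.9% of all genes tested were called and 14.3% were called lower. With shRNF185.3, 23 fell and 0 rose, or 26.7% called lower, where 27.3% of all genes were called in either direction, a share near that of the members, and 13.1% were called lower. No nuclear member was higher even at an unadjusted p under 0.05: that count was 0 with each hairpin, and DESeq2 and limma also called 0 higher. Without batch 2, however, Ndufv3 was called higher under shRNF185.1 (log2 fold change 0.62 ± 0.20 SE, adjusted p = 0.0300, edgeR). Both comparisons use the same 6 control libraries, so they are not independent of each other.

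The changes were small. The median log2 fold change of the nuclear members was -0.14 under shRNF185.1 and -0.12 under shRNF185.3, against -0.02 over all genes tested in each comparison. 74 of 86 members lay below 0 under shRNF185.1 and 75 under shRNF185.3, and the others lay above it. Within batches 1, 2 and 3 the median was -0.14, -0.11 and -0.13 under shRNF185.1, and -0.07, -0.11 and -0.15 under shRNF185.3. The called members lay below control in each of the 3 batches, 34 of 34 and 23 of 23, which their selection on these same libraries largely fixes. The counts of calls depended on the libraries used: without batch 1 they were 12 and 7, and without batch 3 they were 22 and 7. With batch as a covariate they were 26 and 17, and the calls lost then included Cox4i1, Cox7a2 and Atp5a1 under shRNF185.1, and Ndufv1, Ndufc1, Cox5b, Ndufa4, Atp5a1 and Atp5h under shRNF185.3.

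**Figure D1:**
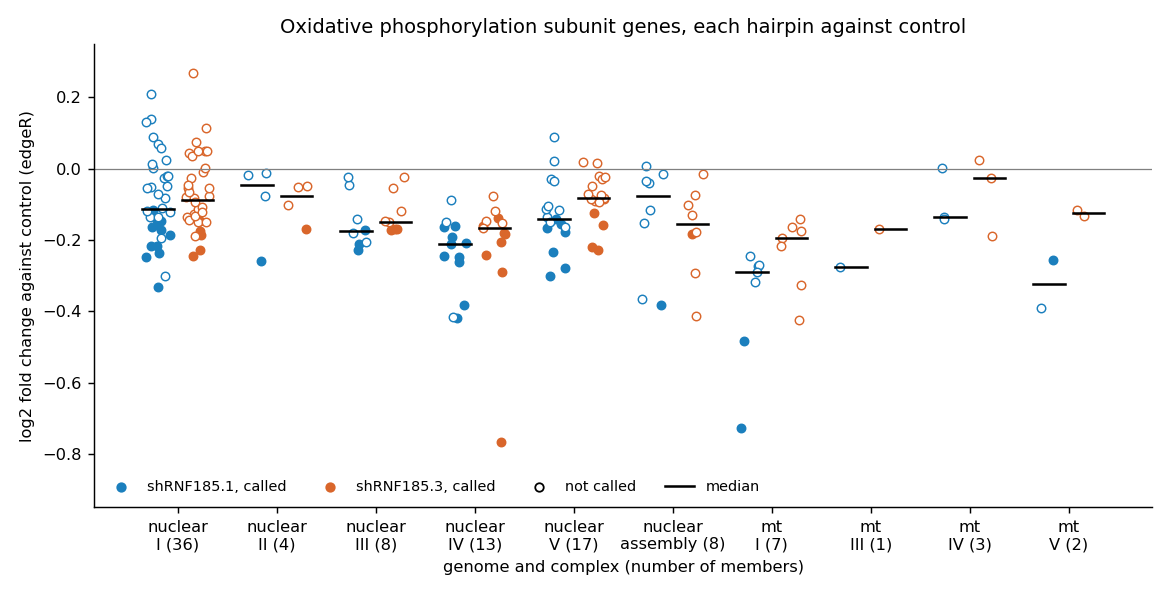
Log2 fold change against control (vertical axis, edgeR) of each member by genome and complex (horizontal axis, with the number of members), for shRNF185.1 in blue and shRNF185.3 in orange. Filled points were called at an adjusted p under 0.05, open points were not, and black lines are medians; all 13 nuclear members of complex IV lie below 0 with each hairpin.

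Complex IV, cytochrome c oxidase, held the highest share of called members, a description with no test against the other complexes. With shRNF185.1, 10 of its 13 nuclear members (76.9%) fell and the median log2 fold change was -0.21. Under shRNF185.3, 8 of 13 (61.5%) fell and the median was -0.17. Of all genes tested, 14.3% and 13.1% were called lower. Cox7c, a small accessory subunit, ranged from 50.3 to 61.7 CPM in control (median 52.8), from 37.3 to 44.6 CPM under shRNF185.1 (median 41.3) and from 40.5 to 47.9 CPM under shRNF185.3 (median 46.0). All 12 hairpin libraries therefore lay below the lowest control library. The log2 fold change of Cox7c was -0.42 ± 0.06 under shRNF185.1 (SE, adjusted p = 6.45e-05, edgeR) and -0.29 ± 0.06 under shRNF185.3 (adjusted p = 0.00198).

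Cox7a2l encodes a protein that joins complexes III and IV into supercomplexes. Its level was 162 to 206 CPM in control (median 190), 133 to 154 CPM under shRNF185.1 (median 142) and 149 to 166 CPM under shRNF185.3 (median 156). All 6 libraries under shRNF185.1 and 5 of 6 under shRNF185.3 were below the lowest control. The log2 fold changes were -0.38 ± 0.06 (adjusted p = 5.04e-05, edgeR) and -0.24 ± 0.06 (adjusted p = 0.00335). Cox6c, another accessory subunit, was also below every control library in all 12 hairpin libraries, at 168 to 181 CPM in control (median 172), 135 to 159 CPM under shRNF185.1 (median 143) and 145 to 160 CPM under shRNF185.3 (median 156). Its log2 fold changes were -0.26 ± 0.04 (adjusted p = 9.16e-05, edgeR) and -0.16 ± 0.04 (adjusted p = 0.00632).

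Cox5a, Cox5b, Cox6b1 and Ndufa4 fell in each comparison by log2 fold changes between -0.14 and -0.25. Cox5a and Cox5b sit close to the catalytic core, Cox6b1 faces the intermembrane space, and Ndufa4, first assigned to complex I, is a subunit of complex IV. Cox4i1, Cox7a2 and Cox8a, the widely expressed isoforms, fell under shRNF185.1 (log2 fold changes -0.16, -0.16 and -0.25, adjusted p = 0.0495, 0.0434 and 0.0160, edgeR) and were at -0.12, -0.15 and -0.17 under shRNF185.3 without being called. The muscle isoform Cox7a1 was called under shRNF185.3 (log2 fold change -0.77 ± 0.25, adjusted p = 0.0258, edgeR) and not under shRNF185.1 (-0.42), though the hairpins were not called different, at a level of only 0.626 to 1.07 CPM in control and 0.400 to 0.617 CPM with that hairpin. Cox6a1 and Cox7b were called in neither comparison. The calls under shRNF185.3 rested in part on single batches: Cox7c was not called without batch 3 (log2 fold change -0.14), nor Cox7a2l without batch 2 (-0.17).

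**Figure D2:**
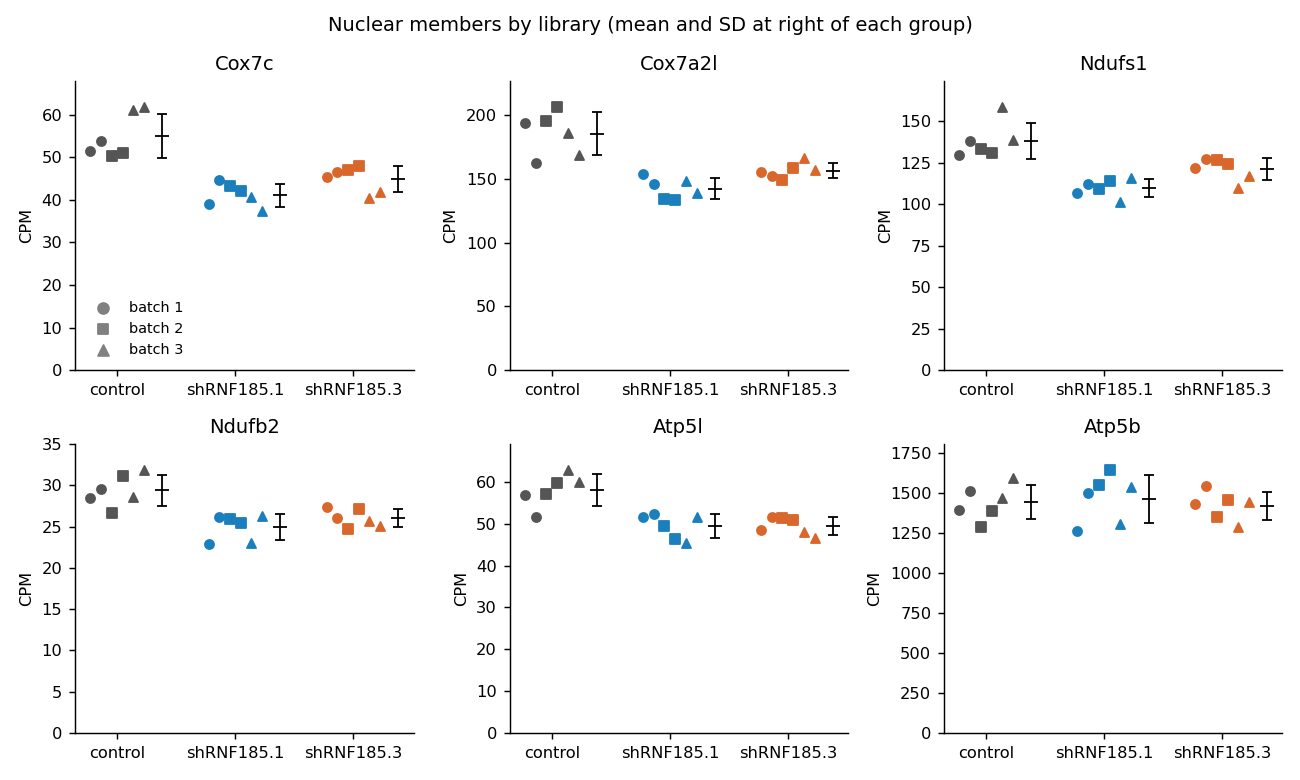
CPM (vertical axis, from 0) of 6 nuclear members in each library, by group (horizontal axis), with the marker shape giving the batch and the bar at the right of each group its mean and SD over 6 libraries. Cox7c lies below its lowest control in all 12 hairpin libraries, whereas the groups overlap for Atp5b.

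In complex I, 12 of 36 nuclear members (33.3%) fell under shRNF185.1 and 6 of 36 (16.7%) under shRNF185.3, with median log2 fold changes of -0.11 and -0.09. Over all genes, 14.3% and 13.1% were called lower. Of the 7 core subunits of complex I, which carry the flavin and the iron-sulfur clusters, 4 and 2 fell. Ndufs1, the largest of them, was at 130 to 158 CPM in control (median 135), 101 to 116 CPM under shRNF185.1 (median 111) and 110 to 127 CPM under shRNF185.3 (median 123.3). No hairpin library reached the lowest control, and the log2 fold changes were -0.33 ± 0.05 (adjusted p = 0.000103, edgeR) and -0.19 ± 0.05 (adjusted p = 0.0128; not called without batch 1 or without batch 3). Ndufv1, which binds NADH and the flavin, fell by 0.22 and 0.14 on the log2 scale (adjusted p = 0.00221 and 0.0466, edgeR). Ndufs8 fell under shRNF185.1 (log2 fold change -0.25, adjusted p = 0.00443, edgeR), and Ndufv2, Ndufs3 and Ndufs7 were not called.

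Among the 29 accessory subunits of complex I, 8 fell under shRNF185.1 and 4 under shRNF185.3, or 27.6% and 13.8%, the latter near the 13.1% of all genes called lower. Ndufb5, a membrane-arm subunit, was at 58.1 to 64.6 CPM in control (median 62.3), 49.9 to 58.8 CPM under shRNF185.1 (median 56.4) and 49.7 to 55.5 CPM under shRNF185.3 (median 51.2). Its log2 fold changes were -0.15 ± 0.05 (adjusted p = 0.0218, edgeR) and -0.25 ± 0.05 (adjusted p = 0.000546), and it was the only call under shRNF185.3 that was kept under all 16 alternative settings. Ndufb2, in the same arm, fell by 0.24 and 0.17 (adjusted p = 0.00188 and 0.0168, edgeR). Ndufc1 and Ndufc2 fell under shRNF185.3 (log2 fold changes -0.15 and -0.23, adjusted p = 0.0324 and 0.00702, edgeR) and were at -0.06 and -0.12 under shRNF185.1 without being called, and the hairpins did not differ by a call (adjusted p = 0.266 and 0.270). The highest member of either comparison was Ndufv3, at 0.21 ± 0.20 and 0.27 ± 0.20, with control libraries spread from 29.3 to 74.2 CPM, so that it did not differ beyond its spread. For Ndufb4, at 5.74 to 7.78 CPM in control and not called, the processed pseudogene Ndufb4c held 84.7% of the counts of the pair, and its own value is therefore uncertain.

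Of the 8 Ndufaf assembly factors, 1 fell in each comparison (12.5%), no larger a share than the 14.3% and 13.1% of all genes called lower. The gene called was Ndufaf7, a methyltransferase needed to assemble complex I. It was at 29.0 to 34.1 CPM in control (median 31.7), 23.0 to 25.6 CPM under shRNF185.1 (median 24.1) and 26.6 to 29.2 CPM under shRNF185.3 (median 27.7). The libraries under shRNF185.1 were all below those under shRNF185.3, and only 1 library under shRNF185.3 reached the control range. The log2 fold changes were -0.38 ± 0.05 (adjusted p = 3.86e-06, edgeR) and -0.18 ± 0.04 (adjusted p = 0.00486). Ndufaf4, at fitted values of -0.37 and -0.41, was not called (adjusted p = 0.114 and 0.0772, edgeR), and its control libraries ranged from 17.0 to 36.3 CPM.

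In complex II, succinate dehydrogenase, Sdhb alone fell, 1 of 4 members (25%) in each comparison, against 14.3% and 13.1% of all genes called lower. This iron-sulfur subunit was at 113 to 140 CPM in control (median 124), 97.2 to 116 CPM under shRNF185.1 (median 103) and 99.9 to 117 CPM under shRNF185.3 (median 113). The groups overlapped, with log2 fold changes of -0.26 ± 0.05 (adjusted p = 0.00143, edgeR) and -0.17 ± 0.05 (adjusted p = 0.0275). The flavoprotein subunit Sdha averaged 221 ± 7.97 CPM in control, 219 ± 11.8 CPM under shRNF185.1 and 213 ± 6.36 CPM under shRNF185.3 (SD, n = 6 each), and its differences, like those of the membrane anchors Sdhc and Sdhd, lay within the spread.

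In complex III, 3 of 8 nuclear members (37.5%) fell in each comparison, with medians of -0.18 and -0.15. Of all genes tested, 14.3% and 13.1% were called lower. Uqcrc2, a core protein, was at 118 to 128 CPM in control (median 121), 99.3 to 115 CPM under shRNF185.1 (median 108) and 104 to 112 CPM under shRNF185.3 (median 109). Every hairpin library was below the lowest control, with a log2 fold change of -0.17 ± 0.04 for each hairpin (adjusted p = 0.00272 and 0.00318, edgeR). Uqcrfs1, the Rieske iron-sulfur protein, fell by 0.21 and 0.17, and Uqcrh, the hinge protein, by 0.23 and 0.17. The other core protein, Uqcrc1, spanned 178 to 212 CPM in control, 164 to 214 CPM under shRNF185.1 and 168 to 215 CPM under shRNF185.3 and was not called.

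In complex V, 7 of 17 nuclear members (41.2%) fell under shRNF185.1 and 4 (23.5%) under shRNF185.3, with medians of -0.14 and -0.08. Of all genes tested, 14.3% and 13.1% were called lower. The alpha subunit gene Atp5a1 was at 764 to 867 CPM in control (median 819), 672 to 787 CPM under shRNF185.1 (median 755) and 681 to 809 CPM under shRNF185.3 (median 730), with a log2 fold change of -0.16 ± 0.05 for each hairpin (adjusted p = 0.0359 and 0.0362, edgeR). Its partner in the catalytic head, Atp5b, averaged 1442 ± 106 CPM in control, 1465 ± 150 CPM under shRNF185.1 and 1419 ± 88.7 CPM under shRNF185.3 (SD, n = 6 each), with log2 fold changes of 0.02 ± 0.07 and -0.02 ± 0.07. Atp5b therefore did not differ beyond its spread.

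Atp5g3, 1 of the genes for the proton-carrying c-ring, fell by 0.28 and 0.22 (adjusted p = 0.00395 and 0.0212, edgeR), while Atp5g1 and Atp5g2, which encode the same mature protein, were not called. Atp5l, a subunit of the membrane part, was at 51.7 to 62.9 CPM in control (median 58.4), 45.4 to 52.4 CPM under shRNF185.1 (median 50.5) and 46.5 to 51.7 CPM under shRNF185.3 (median 49.7). Only 1 library, under shRNF185.1, reached the control range, and the log2 fold change was -0.23 ± 0.05 for each hairpin (adjusted p = 0.00174 and 0.00225, edgeR).

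The hairpins were next compared with each other, on 14.7% of all genes called, 7.72% higher and 6.94% lower in shRNF185.3 than in shRNF185.1. 3 nuclear members were higher under shRNF185.3 and 0 were lower. At an unadjusted p under 0.05, 3 were lower (Ndufb11, Ndufb5 and Ndufaf3), and DESeq2 and limma called 0 lower. With a GC and length offset, however, 7 were called higher and 2 lower. Atp5j, coupling factor 6 of the ATP synthase stalk, was at 104 to 109 CPM in control (median 107), 79.1 to 97.9 CPM under shRNF185.1 (median 86.1) and 92.0 to 105 CPM under shRNF185.3 (median 101). Its log2 fold change was -0.30 ± 0.05 under shRNF185.1 (adjusted p = 0.000129, edgeR), -0.08 ± 0.05 under shRNF185.3 (adjusted p = 0.228) and 0.22 between the hairpins (adjusted p = 0.00448). Ndufaf7 and Ndufs8 differed between the hairpins by 0.20 and 0.19 (adjusted p = 0.00488 and 0.0375, edgeR). Without batch 1, or without batch 2, none of these differences was called, and with batch as a covariate Ndufs8 was not (adjusted p = 0.0662, edgeR).

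The upstream sequence of members that fell in each comparison was read from RefSeq promoter windows on GRCm38.p6, which cover 250 bases before and 50 after the start of a gene and matched 71 of the 86 nuclear members. Shown are the 150 bases before the start of Cox7c, which had the lowest fitted values among the nuclear members called in both comparisons. The same bases are shown for 3 members that fell in each comparison and hold a searched motif there, chosen after the search. Only the first window of a gene was read for this choice, and genes on an excluded chromosome were left out. The 3 are therefore not a complete set. Capitals mark the motifs, CCGGAAG of ETS factors and CGCANGCGC of NRF1, on either strand. Cox7c lies at chr13:86046796-86046945, minus strand, Uqcrh at chr4:116075071-116075220, minus strand, Cox6b1 at chr7:30626115-30626264, minus strand, and Atp5h, a subunit of the peripheral stalk, at chr11:115419920-115420069, minus strand.
Cox7c: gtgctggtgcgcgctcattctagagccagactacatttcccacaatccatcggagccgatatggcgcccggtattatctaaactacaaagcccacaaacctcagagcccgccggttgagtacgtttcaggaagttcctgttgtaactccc
Uqcrh: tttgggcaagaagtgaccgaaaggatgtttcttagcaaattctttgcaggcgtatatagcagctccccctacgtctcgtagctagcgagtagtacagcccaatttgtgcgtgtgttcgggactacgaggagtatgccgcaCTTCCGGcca
Cox6b1: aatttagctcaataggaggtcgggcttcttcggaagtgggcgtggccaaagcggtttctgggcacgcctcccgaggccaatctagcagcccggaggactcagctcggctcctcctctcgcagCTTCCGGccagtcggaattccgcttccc
Atp5h: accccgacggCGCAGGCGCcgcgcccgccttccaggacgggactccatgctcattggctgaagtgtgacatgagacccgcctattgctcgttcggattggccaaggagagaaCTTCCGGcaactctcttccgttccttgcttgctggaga

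Over the whole windows, the NRF1 letters were present for 25 of 71 nuclear members (35.2%) and 7.12% of all 27025 genes with a window. The ETS letters were present for 18 of 71 (25.4%) against 9.93% of all genes, and the YY1 letters AAGATGGCG for 8 of 71 (11.3%) against 1.64%. All 3 were searched on both strands, and none of the 3 is contained in another. Of the members called lower under shRNF185.1, 4 of 26 with a window held the NRF1 letters, compared with 21 of the 45 not called; for the ETS letters the counts were 10 of 26 and 8 of 45. With shRNF185.3 they were 3 of 19 and 22 of 52 for NRF1, and 5 of 19 and 13 of 52 for ETS. These counts are a description of the windows, with no test.

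Transcripts of the mitochondrial genome varied more between batches and libraries than the nuclear ones. With shRNF185.1, 3 of 13 fell and 0 rose, or 23.1%, where 28.9% of all genes were called and 14.3% were called lower, with a median log2 fold change of -0.27. With shRNF185.3, where 27.3% of all genes were called, 0 were called in edgeR, with a median of -0.17; DESeq2 and limma also called 0, and 2 were lower at an unadjusted p under 0.05, mt-Nd2 and mt-Nd3. Between the hairpins 0 were called by edgeR, DESeq2 or limma, with 0 at an unadjusted p under 0.05 and a median of 0.11.

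The 3 that fell under shRNF185.1 encode 2 subunits of complex I and 1 of complex V. mt-Nd3 was at 244 to 533 CPM in control (median 294), 143 to 232 CPM under shRNF185.1 (median 213) and 167 to 342 CPM under shRNF185.3 (median 246). All 6 libraries under shRNF185.1 were below the lowest control, with a log2 fold change of -0.73 ± 0.20 (adjusted p = 0.00854, edgeR), and those under shRNF185.3 overlapped with control at -0.42 ± 0.20 (adjusted p = 0.118). mt-Nd2 was at 994 to 1932 CPM in control (median 1233), 798 to 1063 CPM under shRNF185.1 (median 951) and 814 to 1306 CPM under shRNF185.3 (median 1080). Its groups overlapped, at log2 fold changes of -0.48 ± 0.14 (adjusted p = 0.0134, edgeR) and -0.33 ± 0.14 (adjusted p = 0.0900). mt-Atp8 fell by 0.26 ± 0.09 under shRNF185.1 (adjusted p = 0.0463, edgeR), but a correction for GC content and length gave it 0.11. Its reading frame overlaps that of mt-Atp6, and that of mt-Nd4l overlaps mt-Nd4, so reads of either pair may be divided between the genes.

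The remaining complex I genes, mt-Nd1, mt-Nd4, mt-Nd4l, mt-Nd5 and mt-Nd6, lay between -0.25 and -0.32 under shRNF185.1 and between -0.14 and -0.22 under shRNF185.3, none called. mt-Nd6 is the member transcribed from the other strand. mt-Cytb, the mitochondrial subunit of complex III, averaged 2511 ± 644 CPM in control, 2077 ± 246 CPM under shRNF185.1 and 2230 ± 375 CPM under shRNF185.3 (SD, n = 6 each). mt-Co1, the catalytic subunit of complex IV and the most abundant member, averaged 8505 ± 1026, 7743 ± 407 and 8329 ± 776 CPM. The groups overlapped for each of these genes.

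Batch by batch, the mitochondrial genes as a set did not keep a direction. Within batch 3 all 13 were below control with each hairpin, with medians of -0.70 under shRNF185.1 and -0.71 under shRNF185.3. Within batch 2, 12 of 13 were above control with each hairpin, with medians of 0.13 and 0.21. Within batch 1 the medians were -0.21, with 13 of 13 below control, and 0.06, with 5 of 13 below it. Under shRNF185.1 mt-Nd3 was below control in batches 1, 2 and 3, by -0.53, -0.24 and -1.29. Each batch holds 2 libraries per group, and the control libraries of a batch serve both comparisons. Without batch 3 the median over the 13 genes was -0.02 under shRNF185.1 and 0.12 under shRNF185.3, and the number called under shRNF185.1 was 1. Without batch 2 it was 9, and 6 under shRNF185.3. Without batch 1 it was 0 and 1. Without control replicate 5, left out after the data were seen, 2 were called under shRNF185.1, mt-Atp8 no longer being called, and the medians were -0.16 and -0.05.

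**Figure D3:**
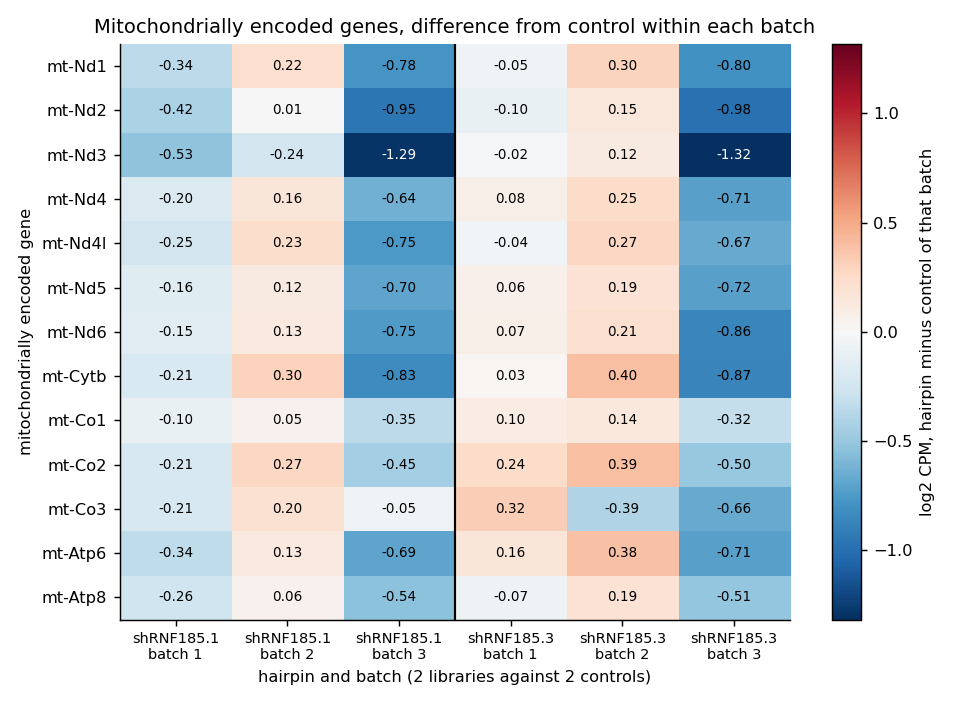
Difference in log2 CPM between hairpin and control libraries of the same batch (colour and printed value) for each mitochondrially encoded gene (rows), by hairpin and batch (columns, 2 libraries against 2). All 13 genes are below control in batch 3 with each hairpin, and 12 of 13 are above it in batch 2.

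As a share of the library, the 13 mitochondrial genes summed to 2.37 ± 0.45% in control, 2.07 ± 0.15% under shRNF185.1 and 2.24 ± 0.31% under shRNF185.3 (SD, n = 6 each). Control ranged from 1.89% to 3.21%, and its highest library was replicate 5. The differences from control were -0.303 and -0.131 percentage points, within the spread of the control libraries. Without control replicate 5 they were -0.135 and 0.037 percentage points. The mitochondrial sums leave out copies in the nuclear genome, which are described below. The 86 nuclear members summed to 1.04 ± 0.04%, 0.970 ± 0.047% and 0.980 ± 0.040%. Control spanned 0.988% to 1.08%, and the hairpin groups spanned 0.909% to 1.04% and 0.924% to 1.02%.

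**Figure D4:**
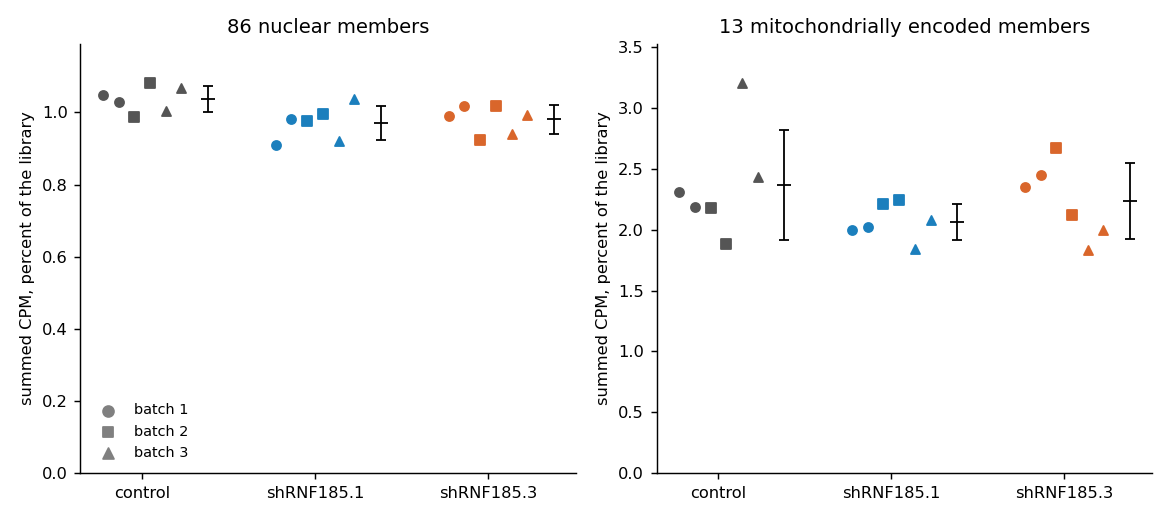
Summed CPM as a percent of the library (vertical axes, from 0) of the 86 nuclear members and of the 13 mitochondrially encoded members, by group (horizontal axis); marker shapes are batches and bars are mean and SD over 6 libraries. Mitochondrial shares run from 1.83% to 3.21%, with control replicate 5 the highest.

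Of the 2 mitochondrial ribosomal RNAs, outside the members, mt-Rnr2 averaged 1255 ± 279 CPM in control, 790 ± 80.6 CPM under shRNF185.1 and 912 ± 127 CPM under shRNF185.3 (SD, n = 6 each). It was called lower in each comparison (log2 fold changes -0.67 and -0.46, adjusted p = 0.000350 and 0.00786, edgeR), as was mt-Rnr1 (-0.47 and -0.29). The nuclear-retained RNA Neat1 was higher under shRNF185.3 (log2 fold change 0.48, adjusted p = 0.0258, edgeR). Their part in the mitochondrial values was not tested.

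Several mitochondrial genes have a nearly identical copy in the nuclear genome, in a block on chromosome 1 annotated as unprocessed pseudogenes, and the counts of these members are divided with the copy. Read over 75 bases, the read length, 99.9% of the windows of mt-Co3, 99.5% of mt-Co2 and of mt-Atp6, 98.7% of mt-Nd4l and 97.8% of mt-Nd3 occur in the copy unchanged. The stretch of mt-Co2 at chrM:7229-7303, its chromosome 1 copy Gm28661 at chr1:24615275-24615349, minus strand, and a more distant copy, Gm13341, at chr2:22587672-22587746, minus strand, show what a read can tell apart (GENCODE M21, GRCm38). Capitals mark bases of the copy that differ from mt-Co2, 0 in Gm28661 and 3 in Gm13341. The stretch was chosen for holding the most differences from Gm13341 in the part searched. Elsewhere 138 windows of mt-Co2 occur unchanged in Gm13341 too.
mt-Co2: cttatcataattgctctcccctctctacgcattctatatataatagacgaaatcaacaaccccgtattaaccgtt
Gm28661: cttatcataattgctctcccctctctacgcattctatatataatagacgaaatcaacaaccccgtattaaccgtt
Gm13341: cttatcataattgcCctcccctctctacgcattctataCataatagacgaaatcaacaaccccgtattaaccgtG

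The distant copy averaged 0.906 ± 0.207 CPM in control, whereas the identical copy Gm28661 held 2.21 to 1655 CPM over the 18 libraries. For mt-Atp6 and mt-Co3 the copies Gm10925 and Gm28437 held more counts than the mitochondrial gene, 87.7% of each pair. In control cells Gm10925 averaged 3754 ± 649 CPM beside 546 ± 231 CPM for mt-Atp6, and Gm28437 averaged 3203 ± 454 CPM beside 434 ± 47.3 CPM for mt-Co3 (SD, n = 6 each). The levels of mt-Atp6 and mt-Co3 given above are therefore uncertain.

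Each copy was then added to its gene, an alternative chosen after the data were seen. The coefficient of variation over the 18 libraries went from 32.4% to 15.9% for mt-Atp6, from 22.4% to 12.4% for mt-Co3 and from 24.0% to 16.5% for mt-Co2. It moved little for mt-Nd3 (35.2% to 33.3%), mt-Nd4l (17.3% to 16.9%) and mt-Co1 (9.82% to 8.87%), was slightly larger for mt-Nd4 (17.9% to 18.3%), and stayed at 24.3% for mt-Nd2 and 18.5% for mt-Nd5. With the copies added, 5 of 13 fell under shRNF185.1 and 0 under shRNF185.3. Those 5 were mt-Nd2, mt-Nd3, mt-Nd4l, mt-Atp8 and mt-Co3, and for mt-Co3 the log2 fold change under shRNF185.1 moved from 0.00 to -0.24 (adjusted p = 0.0371, edgeR). mt-Nd3 stayed called at -0.64 (adjusted p = 0.0117, edgeR). As a share of the library, the mitochondrial genes and their copies summed to 3.19 ± 0.52% in control, 2.75 ± 0.18% under shRNF185.1 and 3.01 ± 0.36% under shRNF185.3 (SD, n = 6 each). The differences from control were -0.438 and -0.173 percentage points, and the groups overlapped.

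**Figure D5:**
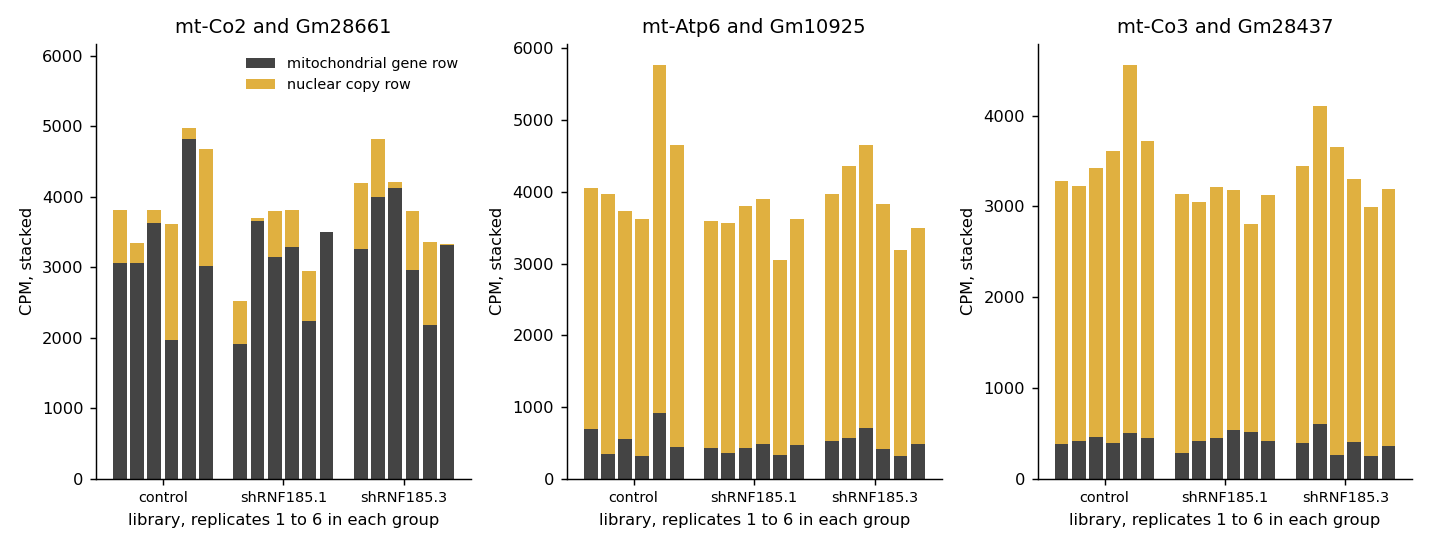
CPM of the mitochondrial gene row (dark) with the CPM of its chromosome 1 copy stacked on top (yellow), by library in order of replicate within each group (horizontal axis), for 3 genes. The copy holds most of the counts of mt-Atp6 and mt-Co3 in every library, and between 2.21 and 1655 CPM beside mt-Co2.

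Other genes of the organelle were described by lists outside the members, where 14.3% of all genes were called lower under shRNF185.1 and 13.1% under shRNF185.3. Of 21 genes of mitochondrial import and the outer membrane, 1 rose and 6 fell under shRNF185.1, and 0 rose and 6 fell under shRNF185.3, with medians of -0.16 and -0.14. Tomm7, a small subunit of the outer membrane translocase, was the lowest of those called under shRNF185.3 apart from the ADP/ATP carrier Slc25a5, at log2 fold changes of -0.33 and -0.30 (adjusted p = 0.000101 and 0.000324, edgeR). Of 19 genes of mitochondrial RNA processing, 2 rose and 6 fell under shRNF185.1, and 1 rose and 6 fell under shRNF185.3. Fastkd2, an RNA-binding protein of the matrix, had log2 fold changes of -0.52 and -0.53 (adjusted p = 0.000553 and 0.000519, edgeR), and Fastk rose by 0.17 and 0.20.

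Of 40 assembly factors outside the rule, 1 rose and 3 fell under shRNF185.1, and 1 rose and 4 fell under shRNF185.3, a smaller share called lower than over all genes. Coa5, an assembly factor of complex IV, was at 97.0 ± 5.86 CPM in control, 62.5 ± 1.64 CPM under shRNF185.1 and 79.9 ± 2.88 CPM under shRNF185.3 (SD, n = 6 each), with log2 fold changes of -0.64 and -0.28 (adjusted p = 3.77e-09 and 5.98e-05, edgeR). Of 15 respiratory chain genes outside the rule, 1 rose and 2 fell under shRNF185.1, and 1 rose and 3 fell under shRNF185.3. The electron transfer flavoprotein gene Etfb rose by 0.28 and 0.20, and Cycs, which encodes cytochrome c, fell under shRNF185.1 (log2 fold change -0.34, adjusted p = 0.0385, edgeR).

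Of 12 citrate cycle genes, 1 rose (Ogdh) and 3 fell under shRNF185.1, and 1 rose (Ogdh) and 1 fell (Idh3a) under shRNF185.3. Of 14 genes of mitochondrial DNA upkeep and transcription, 0 rose and 3 fell (Tfb1m, Mterf1a and Polg2) under shRNF185.1, and 0 rose and 1 fell (Polg) under shRNF185.3. Of 11 transcription factors of mitochondrial biogenesis, 2 rose (Yy1 and Perm1) and 2 fell (Gabpb1 and Nrip1) under shRNF185.1, and 1 rose (Perm1) and 1 fell (Gabpa) under shRNF185.3. Gabpa was at 77.5 ± 5.85 CPM in control, 70.7 ± 4.72 CPM under shRNF185.1 and 65.8 ± 3.74 CPM under shRNF185.3 (SD, n = 6 each).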

How the data were processed

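Per the submitters' processing notes, reads were handled with cutadapt 2.3, STAR 2.7.0d and RSEM 1.3.1 on mm10; the annotation and strand setting are not given in the sources used here. The authors deposited expected counts and a library-scaled signal in CPM, each carrying the name of ComBat-Seq, which removes batch effects; its model is not given in the sources used here. 3998 of the expected counts (0.466%) were not whole and were rounded.

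edgeR 4.0.16 in R 4.3.3 tested genes kept by filterByExpr (minimum count 10, 14309 of 47643) with TMM scaling and a mean for each of 3 groups over 18 libraries. The quasi-likelihood F test was adjusted by Benjamini-Hochberg over all genes tested. Alternatives included DESeq2 1.42.0 and limma 3.58.1 (log2 of CPM plus 1). Levels per kb use the median transcript length in GENCODE M21. Copies were matched in windows of 75 bases.

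Replicate numbers were treated as names: over 18 same-numbered pairs, 4 correlated over 0.1. Over 45 pairs of libraries of a group the chi-square per gene was 7.64 to 84.4, so none was a duplicate. On simulated data for shRNF185.1 against control (14309 genes, 50 changed at each size), 6% were called at a log2 change of 0.25, 58% at 0.5, 88% at 1 and 98% at 2. The changed genes were drawn at random from all genes tested, at any level, with a spread set by level alone. These shares therefore need not hold for the members. Members, lists and the alternatives were chosen with earlier results of these data known. Named were all mitochondrial members, the succinate dehydrogenase genes, core subunits, isoform genes, Rnf185 and the most changed called members of each complex; Ndufb4, Ndufb11, Ndufaf3, Ndufaf4, Ndufv3, the Atp5g genes and the second genes named from a list were chosen after their values were seen. Some genes are not reported here.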

Additional observations from a re-analysis of the deposited data

Results flagged for a closer look

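In 6 of 156 groups of 6 libraries, 1 library stood far from the others (Dixon's test of the gap to the nearest library, in log2 CPM); chance gives about 7.8. Atp5j with shRNF185.3 was lowest in replicate 5, at 6.53 with the next library at 6.65. Cox6a1 with shRNF185.3 was lowest in replicate 3, at 7.09 against 7.28. Cox6b1 with shRNF185.1 was highest in replicate 6, at 6.85 against 6.72. Ndufs1 in control was highest in replicate 5, at 7.31 against 7.12, and Uqcrfs1 in control was lowest in replicate 3, at 6.49 against 6.62. mt-Co1 in control was highest in replicate 5, at 13.36 against 13.06.

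The hairpins differed from each other for 3 nuclear members, each higher with shRNF185.3. The log2 fold changes were 0.22 for Atp5j, 0.20 for Ndufaf7 and 0.19 for Ndufs8 (adjusted p = 0.00448, 0.00488 and 0.0375, edgeR). This was 3.49% of the nuclear members, a smaller share than the 7.72% of all genes called higher. Without batch 1, or without batch 2, none of the 3 was called.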

How the results depend on the processing

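The nuclear median stayed between -0.14 and -0.12 under shRNF185.1 and between -0.14 and -0.08 under shRNF185.3 under the 16 alternatives run, and 9 of the 34 calls under shRNF185.1 (Ndufb2, Ndufs1, Uqcrh, Cox6c, Cox7a2l, Cox7c, Atp5j, Atp5l and Ndufaf7) and 1 of the 23 under shRNF185.3 (Ndufb5) were kept under all of them. Nuclear members called under shRNF185.1, 34, became 20 with no filter on low counts, 12 without batch 1 and 22 without batch 3. Those called under shRNF185.3, 23, became 14 with no filter, 15 with the libraries of a group and batch summed, 7 when batch 1 was left out, 15 without batch 2 and 7 when batch 3 was left out. Between the hairpins, 3 became 9 with a GC and length offset (7 higher and 2 lower under shRNF185.3). They became 6 with that offset and the replicate block (4 higher and 2 lower) and 5 with summed libraries (4 higher and 1 lower). The count was 0 when batch 1 or batch 2 was left out (0 each), and 5 without control replicate 5 or without batch 3 (5 each, all higher). Mitochondrial members called under shRNF185.1, 3, became 0 with the GC and length offset and the replicate block, 5 with copies added, 0 with summed libraries, 0 when batch 1 was left out, 9 without batch 2 and 1 when batch 3 was left out. With shRNF185.3, 0 became 1 without batch 1 and 6 without batch 2, and between the hairpins 0 became 1 without batch 1 and 1 without batch 3. The mitochondrial median moved without batch 3 from -0.27 to -0.0187 under shRNF185.1, and from -0.17 to 0.12 under shRNF185.3, where the difference in share reversed from -0.131 to 0.257 percentage points. mt-Atp8 under shRNF185.1 reversed to 0.11 with the GC and length offset (adjusted p = 0.157, edgeR) and with that offset and the replicate block (adjusted p = 0.173), and mt-Co3 went to -0.24 with copies added. The cause was not tested, except that fewer libraries enter where a batch is left out or libraries are summed. The replicate block alone gave 33, 22 and 3 nuclear and 2, 0 and 0 mitochondrial calls for shRNF185.1, shRNF185.3 and between the hairpins. Same-numbered libraries did not meet the criterion for pairing (mean correlation of deviations -0.014, against -0.434 for the other number of the same batch), although the odd-numbered library had the higher TMM factor in every group and batch. Copies added, summed libraries and control replicate 5 left out were chosen after seeing the data. A member that was not called is not shown to be unchanged.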
